A study of Mus musculus with 9 samples.

Results

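The mitochondrial genome encodes core subunits of the respiratory chain, and 7 of its protein genes are described here: mt-Nd1, mt-Nd2, mt-Nd4, mt-Nd5 and mt-Nd6 of complex I, mt-Cytb of complex III and mt-Co1 of complex IV. They were chosen by gene symbol, as mitochondrial protein genes with high read counts, out of 13 mitochondrial protein genes, 37 mitochondrial genes and 55401 genes in the count table. The lowest value inside that choice was 12240 reads for mt-Nd6 in 1 embryo, and the other 6 protein genes had 0 or 1 read per embryo, so the levels below are a description and were not tested. The comparison of genotypes was not used in the choice, but earlier results of these data were known when it was made.

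Gene expression was profiled by poly(A)-selected RNA-seq in bulk forebrain of female mouse embryos at embryonic days 16 to 17. There were 5 Npas3+/+ embryos (WT, embryos 5, 15, 16, 41 and 43) and 4 Npas3+/- embryos (HET, embryos 5, 6, 7 and 24), all on the C57BL/6J background, with WT littermates as controls. The HET allele is a constitutive knockout of NPAS3, a neuronal PAS domain transcription factor, so every cell of the embryo carried it. The comparison asks which transcripts differ in forebrain when a single copy of Npas3 is left. The labels give the cell type as astrocytes, but the tissue was unsorted: Neurod6, a marker of cortical neurons, was at 707 to 1092 CPM in every embryo. Of 6 astrocyte markers, Slc1a3, which radial glia also express, was at 247 to 319 CPM, Slc1a2 at 82.7 to 184.8, Aldh1l1 at 2.79 to 31.7, Gfap at 4.23 to 12.5 and Aqp4 at 0.163 to 2.02 CPM, and S100b had 4 to 17 reads per embryo. Nothing in the labels links embryos to litters, dams or sequencing batches.

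Total counts ranged from 42640218 to 62830060 per embryo. Levels in CPM are counts scaled to a common library size after TMM correction, where TMM is the scaling factor of edgeR that sets most genes equal between libraries. Of 17818 genes tested, 25 passed an adjusted p of 0.05 (0.14%), 5 of them higher (0.0281%) and 20 lower (0.112%) in HET. Npas3 itself was at 36.2 ± 4.18 CPM in WT (SD, n = 5) and 29.5 ± 3.09 CPM in HET (SD, n = 4), with a log2 fold change of -0.30 and an adjusted p of 0.877 by edgeR. The groups overlapped, with WT embryo 16 at 29.7 CPM and HET embryo 7 at 34.1 CPM, and which part of Npas3 the allele lacks is not given in the sources used here. RNA of the choroid plexus, the epithelium that secretes cerebrospinal fluid, differed between embryos: the level of its marker Ttr was 2127 to 2631 CPM in WT embryos 15, 16 and 41, 466.6 CPM in HET embryo 24 and 0.770 to 11.7 CPM in the remaining 5. Of the 5 astrocyte markers tested, 4 had a log2 fold change below 0, Gfap was at 0.08, and 0 passed the threshold. The log2 fold change by edgeR was -1.63 for Aqp4 (adjusted p = 0.555) and -1.16 for Aldh1l1 (adjusted p = 0.904). The groups did not overlap for Aqp4, beside 1.85% of all genes without overlap. The part of these markers in the members' values was not tested. In bulk tissue, fewer cells of a type and less RNA per cell cannot be told apart.

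Mammalian mitochondrial DNA is a small circle that is transcribed from both strands into long precursors, which are cut at the tRNAs that punctuate them. Most of the mRNAs then receive short poly(A) tails, which in several genes also complete the stop codon. The ND6 mRNA of mammals is known to lack a stable tail, and some of the others run on past their stop codon. The proteins are made inside the organelle and join subunits imported from the cytosol: the ND proteins form the proton-pumping membrane arm of complex I, cytochrome b is the quinol-oxidising core of complex III, and COX1 holds the haem and copper centre of complex IV where oxygen is reduced. The transcripts are abundant in brain, which depends on oxidative phosphorylation for most of its energy.

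The last 30 bases of each member are written 5′ to 3′ on the coding strand, from the GENCODE mouse transcripts (GRCm38). They are shown because they tell which annotated ends hold a full stop codon and which hold a part of it. Capitals mark the stop codon or what is encoded of it.

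mt-Nd1: tttacagcgggagtaccaccatacataTAG

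mt-Nd2: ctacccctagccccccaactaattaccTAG

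mt-Co1: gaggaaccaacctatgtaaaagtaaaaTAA

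mt-Nd4: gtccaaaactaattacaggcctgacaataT

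mt-Nd5: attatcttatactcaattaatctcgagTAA

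mt-Nd6: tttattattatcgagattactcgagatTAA

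mt-Cytb: tcgaagacaaaatactaaaattatatccaT

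As annotated, mt-Nd4 and mt-Cytb end in a lone T, so their stop codon is complete only once the tail is added. The annotated ends of the other 5 members hold a full stop. The ends of mt-Nd1 and mt-Nd2, however, overlap the next tRNA gene on the plus strand, mt-Ti from chrM:3706 and mt-Tw from chrM:4950. Where these precursors were cut was not tested. Whether the mRNAs of mt-Nd1 and mt-Nd2 need a tail thus cannot be read from the annotated ends. The genes lie on the mitochondrial chromosome (GRCm38) as single exons without introns: mt-Nd1 at chrM:2751-3707, mt-Nd2 at chrM:3914-4951, mt-Co1 at chrM:5328-6872, mt-Nd4 at chrM:10167-11544, mt-Nd5 at chrM:11742-13565 and mt-Cytb at chrM:14145-15288, all on the plus strand, and mt-Nd6 at chrM:13552-14070 on the minus strand. mt-Nd5 and mt-Nd6 overlap by 14 bases at their 3′ ends (chrM:13552-13565). Whether the counting used strand is not given in the sources used here, so reads from transcripts antisense to mt-Nd6 could be part of its count. How evenly poly(A) capture retained the members, mt-Nd6 above all, was not tested.

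For none of the 7 mitochondrial transcripts was the difference between HET and WT forebrain larger than the spread between embryos. Their log2 fold changes lay between -0.07 for mt-Nd1 and 0.04 for mt-Cytb, and 0 of 7 passed an adjusted p of 0.05, against 0.14% of all genes tested. No member reached an unadjusted p of 0.05 by edgeR, DESeq2 or limma-voom (0 of 7 in each), where 5.42% of all genes did so by edgeR. The WT and HET values overlapped for all 7 members, and 1.85% of all genes had groups that did not overlap. The log2 fold change was below 0 for 5 of 7 members, with a median of -0.03, beside 51.5% of all genes and a median of -0.0046.

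mt-Co1, the catalytic subunit of complex IV, was at 6232, 7227, 6752, 6495 and 7187 CPM in WT embryos 5, 15, 16, 41 and 43. In HET embryos 5, 6, 7 and 24 it was at 7195, 6724, 6502 and 6906 CPM. All 4 HET embryos fell within the range of the WT embryos, and WT embryo 5 was the lowest of the 9. The means were 6778 ± 432 CPM in WT (SD, n = 5) and 6832 ± 293 CPM in HET (SD, n = 4), a log2 fold change of 0.01 with a 95% interval of -0.15 to 0.17 and an adjusted p of 0.985 by edgeR. It ranked 2nd of the 17818 tested genes by mean CPM.

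mt-Cytb, the cytochrome b of complex III, was at 3391, 4059, 4183, 3842 and 4265 CPM in the WT embryos, in the same order. The HET embryos had 4268, 3989, 3724 and 4230 CPM. HET embryo 5 was the highest and WT embryo 5 again the lowest, with the other 7 embryos between 3724 and 4265 CPM. The mean was 3948 ± 350 CPM in WT and 4053 ± 252 CPM in HET, and the log2 fold change was 0.04 with an interval of -0.15 to 0.22 and an adjusted p of 0.949 by edgeR.

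The complex I subunit mt-Nd1, whose protein lies at the junction of the membrane arm with the quinone site, was at 2015, 2602, 2852, 2453 and 2367 CPM in WT. In HET it was at 2296, 2337, 2159 and 2576 CPM. The HET values lay inside the WT range, which ran from WT embryo 5 to WT embryo 16. The means of 2458 ± 308 and 2342 ± 174 CPM gave a log2 fold change of -0.07, with an interval of -0.29 to 0.15 and an adjusted p of 0.939 by edgeR.

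mt-Nd2, an antiporter-like subunit of the membrane arm, was at 950.9, 1451, 1373, 1324 and 1363 CPM in WT. In HET it was at 1257, 1166, 1155 and 1414 CPM. WT embryo 5 stood below all other embryos, and the other 4 WT embryos were above 3 of the 4 HET embryos. For mt-Nd2 the log2 fold change was -0.05, with an interval of -0.31 to 0.21 and an adjusted p of 0.953 by edgeR, and -0.14 without WT embryo 5.

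mt-Nd4, another antiporter-like subunit, was at 939.6, 1255, 1324, 1190 and 1164 CPM in WT. In HET it was at 1132, 1082, 1075 and 1210 CPM. The pattern over embryos was that of mt-Nd1 and mt-Nd2, with WT embryo 5 lowest and 3 HET embryos below the other 4 WT embryos. The means of 1175 ± 145 and 1125 ± 62.1 CPM gave a log2 fold change of -0.06, with an interval of -0.27 to 0.15 and an adjusted p of 0.939 by edgeR. Without WT embryo 5 the log2 fold change was -0.13.

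mt-Nd5, the antiporter-like subunit at the far end of the membrane arm, was at 1482, 2002, 1742, 1762 and 1584 CPM in WT. In HET it was at 1875, 1548, 1600 and 1682 CPM. The 2 embryos above 1800 CPM were WT embryo 15 and HET embryo 5. HET against WT gave a log2 fold change of -0.03, with an interval of -0.24 to 0.18 and an adjusted p of 0.965 by edgeR.

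mt-Nd6 is the sole member transcribed from the other strand. Its levels were 347.4, 389.3, 465.7, 401.1 and 270.3 CPM in WT and 385.7, 354.4, 363.3 and 389.7 CPM in HET. Here WT embryo 43, not WT embryo 5, was lowest, and the HET embryos sat close together in the middle of the WT range. HET against WT gave a log2 fold change of -0.01, with an interval of -0.29 to 0.28 and an adjusted p of 0.995 by edgeR. Its direction depended on the fit: 0.02 by limma-voom, 0.15 with choroid plexus RNA as a covariate and 0.25 when only the 5 embryos below 100 CPM of Ttr were fitted.

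**Figure D1:**
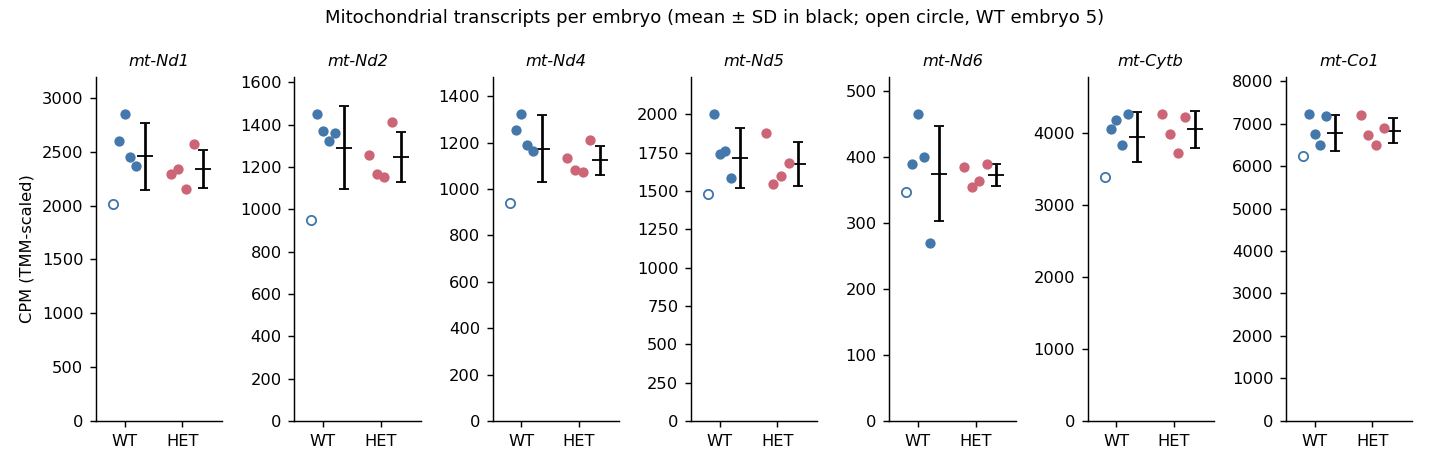
CPM of each of the 7 mitochondrial transcripts (vertical axis from 0, separate scale per gene) in 5 WT (blue) and 4 HET (red) embryos, with the mean ± SD in black and WT embryo 5 as an open circle. The groups overlap for all 7 genes, and WT embryo 5 is the lowest of 9 for each gene except mt-Nd6.

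WT embryo 5 was the lowest of the 9 embryos for 6 of 7 members. Its depth, at 42640218 counts, was also the lowest. The counting error of the members was at most 0.904% (coefficient of variation, at the lowest count of mt-Nd6, taking reads as independent molecules). The coefficient of variation between embryos was 6.38% to 19.3% in WT and 4.29% to 9.59% in HET. WT embryo 5 also had the lowest summed CPM of 7 red cell genes, 221.5 against 348.3 to 567.1 in the other 8 embryos, while its embryonic beta globin Hbb-y was the highest at 12.1 CPM against 0.889 to 2.95. The part of blood content or age within the sampled days in the members' values was not tested. Without WT embryo 5 the members' log2 fold changes were between -0.14 for mt-Nd2 and -0.01 for mt-Cytb, and 0 of 7 passed the threshold.

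The directions depended on which embryos and terms entered the fit. With the mean log2 CPM of 8 choroid plexus markers as a covariate, the log2 fold changes of mt-Nd1, mt-Nd2, mt-Nd4 and mt-Nd5 turned to 0.03, 0.06, 0.03 and 0.05. When the fit was limited to embryos whose Ttr was below 100 CPM (2 WT, 3 HET), they were 0.05, 0.04, 0.06 and 0.13. The summed CPM of the 8 markers was 26.3 to 2959 in WT and 36.03 to 548.7 in HET, with Kl at 0 in WT embryo 5. All 8 markers had a log2 fold change below 0, 6 of them with an unadjusted p under 0.05 by edgeR and 0 past the threshold, and their part in the members' values was otherwise not tested. None of these member values passed the threshold.

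**Figure D2:**
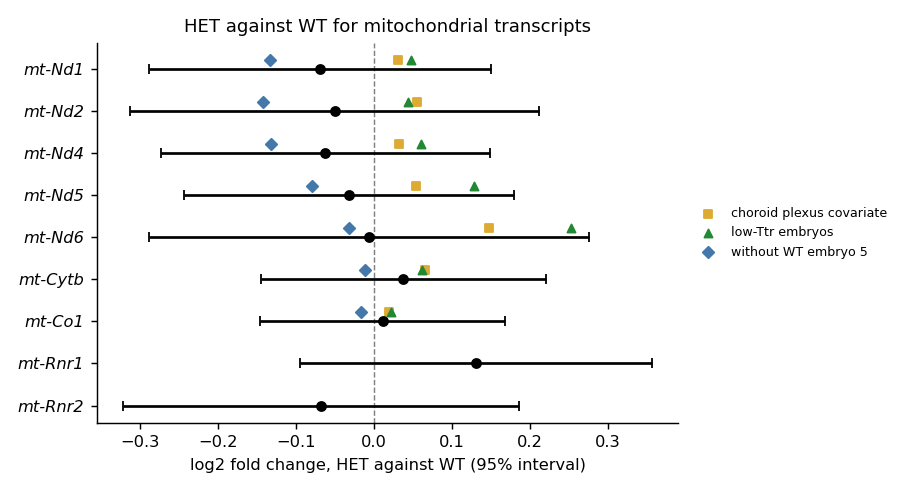
Log2 fold change of HET against WT for the 7 members and the 2 mitochondrial ribosomal RNAs, with 95% intervals from edgeR (black), and for the members the value with choroid plexus RNA as a covariate (yellow squares), among the 5 low-Ttr embryos (green triangles) and without WT embryo 5 (blue diamonds). All 9 intervals include 0, and the values for the ND genes fall on either side of 0 depending on the fit.

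Summed over the 7 members, the mitochondrial transcripts took 1.497% to 1.926% of all counts. The sum was 15358, 18985, 18690, 17467 and 18200 CPM in WT embryos 5, 15, 16, 41 and 43. It was 18408, 17201, 16579 and 18406 CPM in HET embryos 5, 6, 7 and 24. The 4 HET embryos were inside the WT range, and the means were 17740 ± 1450 CPM in WT (SD, n = 5) and 17648 ± 912 CPM in HET (SD, n = 4). The part of sequence shared with the nuclear genome, described below, in these sums was not tested. The members held 96.6% to 97.4% of all mitochondrial counts as assigned, where the other 6 protein genes had 0 or 1 read per embryo. Most of the rest were the ribosomal RNAs. Of these, mt-Rnr1 had a log2 fold change of 0.13 (adjusted p = 0.911) and mt-Rnr2 of -0.07 (adjusted p = 0.940) by edgeR; ribosomal RNAs are only partly retained by poly(A) capture.

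The share of each member in this sum overlapped between the groups. mt-Co1 made up 38.3 ± 1.78% of it in WT and 38.7 ± 0.809% in HET, and mt-Cytb 22.2 ± 0.752% and 23.0 ± 0.342%. The 5 ND genes shared the remainder, from 13.8 ± 0.906% in WT and 13.3 ± 0.664% in HET for mt-Nd1 to 2.12 ± 0.386% and 2.12 ± 0.0554% for mt-Nd6. The ratio of mt-Nd6 to its overlapping neighbour on the other strand, mt-Nd5, ran from 0.171 in WT embryo 43 to 0.267 in WT embryo 16, and from 0.206 to 0.232 in HET.

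The members varied together to different degrees. Over the 9 embryos, Pearson's r of log2 CPM was 0.962 for mt-Nd1 with mt-Nd4, 0.939 for mt-Nd2 with mt-Nd4 and 0.868 for mt-Co1 with mt-Cytb. For mt-Nd6 with the other 6 members, r ran from -0.157 with mt-Co1 to 0.541 with mt-Nd1, and for the pairs without mt-Nd6 from 0.476 for mt-Co1 with mt-Nd1 upwards. These are descriptions, since all genes of an embryo share its library, its scaling and the low values of WT embryo 5.

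The level per length differed several-fold among the members. Per kilobase of gene, mt-Co1 was at 4403 ± 230.2 CPM (SD, n = 9 embryos), mt-Cytb at 3492 ± 259, mt-Nd1 at 2514 ± 261, mt-Nd2 at 1226 ± 153, mt-Nd5 at 930.7 ± 91.3, mt-Nd4 at 836.2 ± 81.7 and mt-Nd6 at 720.8 ± 100.4. The top and bottom of this order differed 6.11-fold. mt-Co1 did not overlap mt-Cytb, nor mt-Nd1 mt-Nd2, while the ranges of mt-Cytb and mt-Nd1, and of the 4 lowest genes, overlapped from one to the next. Within embryos the order was steadier: each gene was above the next in 9 of 9 embryos, except that mt-Nd5 was above mt-Nd4 in 8 of 9.

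The other 6 mitochondrial protein genes were almost without reads, although they lie between members on the plus strand. mt-Co2, mt-Atp8, mt-Atp6 and mt-Co3 each had 1 read in 1 embryo and 0 in the other 8, and mt-Nd3 and mt-Nd4l had 0 in all 9. At the lowest depth a count of 0 allows up to 0.0722 CPM of assigned reads, for counting error only. This floor sets no limit on a transcript whose sequence is shared with the nuclear genome, as described next. mt-Co2 and mt-Co3 encode partners of COX1 in complex IV, mt-Atp6 and mt-Atp8 parts of the ATP synthase, and mt-Nd3 and mt-Nd4l small subunits of complex I. The 22 mitochondrial tRNA genes together had 1 read.

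These 6 genes coincide with a stretch of mitochondrial sequence that also sits in the nuclear genome. On chromosome 1, 7 annotated pseudogenes within chr1:24611535-24616197 on the minus strand match chrM:6381-11042 with 7 differences in 4149 bases compared (99.83% identity), and all 6 genes are inside that block. The first 60 bases of mt-Co2 and of its copy Gm28661 are shown because they do not differ, and the same stretch of mt-Co1 and its copy Gm13340 on chromosome 2 because it does; capitals mark the 2 differing bases.

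mt-Co2 (chrM:7013-7072): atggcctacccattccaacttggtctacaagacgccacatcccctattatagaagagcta

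Gm28661 (chr1:24615506-24615565, minus strand): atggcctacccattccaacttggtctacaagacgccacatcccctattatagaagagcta

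mt-Co1 (chrM:5328-5387): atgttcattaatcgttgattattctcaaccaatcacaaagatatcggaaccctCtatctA

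Gm13340 (chr2:22589588-22589647, minus strand): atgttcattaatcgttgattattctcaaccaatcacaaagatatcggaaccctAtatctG

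A read as short as the first pair could come from either place, and a read over the second pair is told apart by 2 bases. Of all 50-base words of each gene, the share also found in an annotated nuclear transcript was 100% for mt-Co2, 99.5% for mt-Atp6, 99.9% for mt-Co3, 98.0% for mt-Nd3 and 98.8% for mt-Nd4l. mt-Atp8 shared 0% with annotated transcripts. It lies between the copied genes, and the gap between the copies of mt-Co2 and mt-Atp6 is 233 bases long on chromosome 1 and 230 bases on the mitochondrial chromosome, but the sequence of that gap was not read here. Among the members, mt-Nd4 shared 62.2% and mt-Co1 51.1% of their words, mt-Nd2 8.19% and mt-Nd5 7.61%, and mt-Nd1, mt-Nd6 and mt-Cytb 0%. The block holds the 3′ part of mt-Co1 and the 5′ part of mt-Nd4, and the other 5 members are wholly outside it. How reads that map to several places were counted is not given in the sources used here, and its part in the counts of these genes was not tested.

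**Figure D3:**
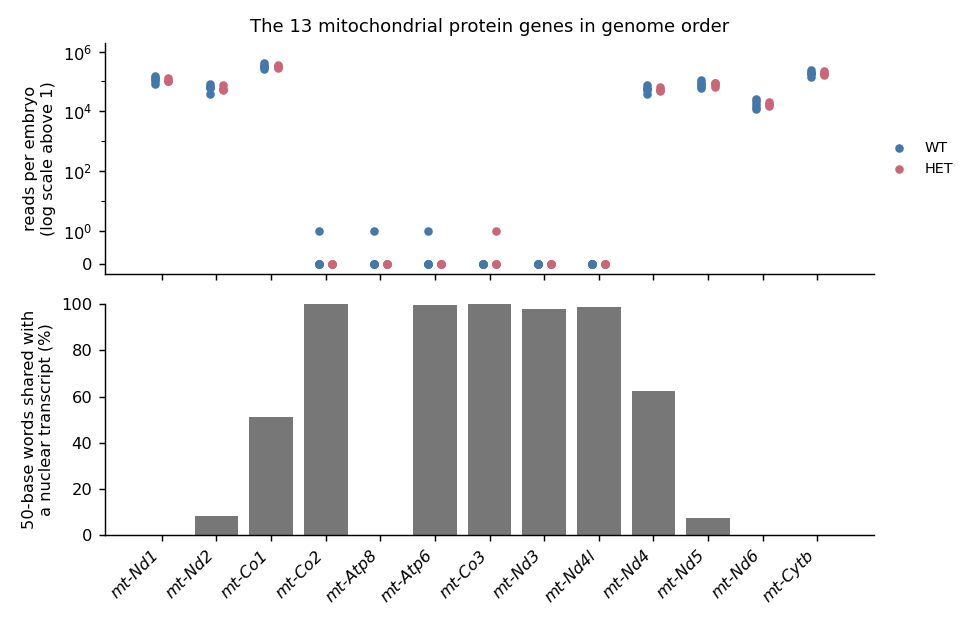
Upper panel: reads per embryo (log scale above 1) of the 13 mitochondrial protein genes in genome order, WT in blue and HET in red. Lower panel: percent of each gene's 50-base words that occur in an annotated nuclear transcript. The 7 members have at least 12240 reads in every embryo, and 5 of the 6 genes with 0 or 1 read share at least 97.993% of their words; mt-Atp8 shares 0% with annotated transcripts.

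Few reads were assigned to the nuclear copies. Gm28661, the chromosome 1 copy of mt-Co2, had 0 to 2 reads per embryo, while Gm13341, a copy on chromosome 2 that holds 35.3% of the words of mt-Co2, had 23 to 68. Of the other chromosome 1 copies, Gm10925 (mt-Atp6) and Gm28437 (mt-Co3) had 0 or 1 and Gm10222 (mt-Nd4l) 0 in all 9. Gm28438, the copy of mt-Nd3, had 11 to 23 reads and differs from the gene at 1 of 345 bases. Gm13340, a full-length copy of mt-Co1 with 37 differences in 1545 bases, had 82 to 122 reads, beside 259083 to 412180 for mt-Co1. Gm29216, the chromosome 1 copy of the 3′ part of mt-Co1 with 6 differences in 492 bases, varied most, with 109, 3, 5, 40 and 0 reads in WT embryos 5, 15, 16, 41 and 43 and 27, 40, 29 and 1 in HET embryos 5, 6, 7 and 24.

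A second scale divides by the part of each gene that is not shared. Per 1000 unshared 50-base words, a scale added after the shared words were known, mt-Co1 was at 9305 ± 486.5 CPM, mt-Cytb at 3648 ± 271, mt-Nd1 at 2650 ± 276, mt-Nd4 at 2295 ± 224, mt-Nd2 at 1402 ± 175, mt-Nd5 at 1035 ± 101.5 and mt-Nd6 at 795.9 ± 111 (SD, n = 9). mt-Nd4 thus moved from 6 to 4 in the order, and the fold between top and bottom from 6.11 to 11.7. With 100-base words, also added later, mt-Co1 was at 6803 and mt-Nd6 at 890.7 CPM per 1000 unshared words, 7.64-fold apart, and the order was that of the 50-base words. The order of the members other than mt-Nd4 was kept on all 3 scales. Both scales by words hold only if shared reads were left out, which is not known.

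**Figure D4:**
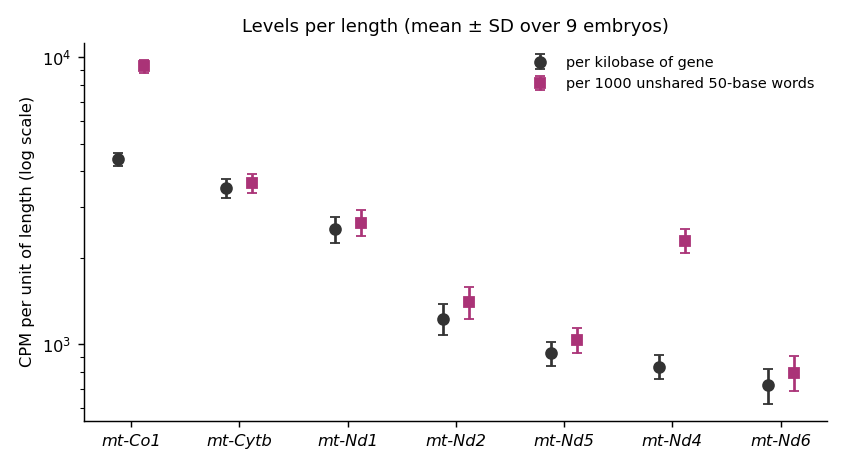
Mean level ± SD over 9 embryos (log scale) of the 7 members, in CPM per kilobase of gene (black circles) and CPM per 1000 unshared 50-base words (purple squares). mt-Co1 is on top on both scales, at 4403 and 9305, and mt-Nd4 moves from 836.2 to 2295, above mt-Nd2 and mt-Nd5.

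Complexes I, III and IV each combine mitochondrial with nuclear subunits, and the ratio of their summed transcripts was compared between groups without a test. The mitochondrial side lacks mt-Nd3 and mt-Nd4l of complex I and mt-Co2 and mt-Co3 of complex IV, which had almost no reads. mt-Co1 and mt-Nd4 share 51.1% and 62.2% of their 50-base words with nuclear transcripts, so the ratios are not compared across complexes. For complex I the ratio of the 5 ND members to 36 nuclear subunits was 3.34 ± 0.427 in WT (SD, n = 5) and 3.31 ± 0.229 in HET (SD, n = 4). For complex III the ratio of mt-Cytb to 9 nuclear subunits was 4.68 ± 0.415 and 4.98 ± 0.250, and for complex IV the ratio of mt-Co1 to 11 nuclear subunits was 5.47 ± 0.616 and 5.63 ± 0.242. The lowest ratios for complexes I and III were in WT embryo 5, at 2.82 and 4.10, where the members were low. The lowest for complex IV was in WT embryo 16, at 4.60, where the nuclear subunits were highest at 1468.7 CPM. The groups overlapped in all 3 ratios.

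Of 121 nuclear genes of mitochondrial respiration and mitochondrial DNA expression that were tested, 0 passed the threshold by edgeR, DESeq2 or limma-voom, beside 0.14% of all genes by edgeR. An unadjusted p under 0.05 was reached by 4 of the 121 with each tool, which is no larger a share than the 5.42% of all genes by edgeR. The log2 fold change was below 0 in 29 of 36 nuclear subunits of complex I (median -0.03), 6 of 9 of complex III (-0.04), 9 of 11 of complex IV (-0.04) and 10 of 15 of complex V (-0.03). It was below 0 in 10 of 10 genes of mitochondrial DNA transcription (-0.08), 14 of 18 of mitochondrial RNA processing (-0.05), 10 of 14 of mitochondrial DNA replication and upkeep (-0.02) and 3 of 8 nuclear regulators of mitochondrial biogenesis (0.14), beside 51.5% of all genes tested. The genes of a list share the same libraries, and no list was tested as a set.

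Lrpprc, which binds and stabilises mitochondrial mRNAs and promotes their polyadenylation, had the smallest unadjusted p of these genes. It was at 81.0, 86.6, 90.0, 87.4 and 84.5 CPM in WT embryos 5, 15, 16, 41 and 43 and at 77.5, 73.0, 74.8 and 77.9 CPM in HET embryos 5, 6, 7 and 24. The groups did not overlap, with a gap between 77.9 and 81.0 CPM, beside 1.85% of all genes with such a gap. The log2 fold change was -0.18 ± 0.05 (SE), with an adjusted p of 0.702 by edgeR and 0.127 by DESeq2. In the 5 low-Ttr embryos it was -0.14 with an unadjusted p of 0.110 by edgeR.

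Tfb1m, the methyltransferase that modifies mitochondrial small-subunit rRNA, was the other gene without overlap, at 8.59 to 9.33 CPM in WT and 7.66 to 8.20 CPM in HET, with a log2 fold change of -0.16 and an adjusted p of 0.911 by edgeR. Tfb2m, the initiation factor of mitochondrial RNA polymerase, was at 16.2 ± 1.66 and 14.3 ± 1.02 CPM, and Mterf1a, which binds downstream of the rRNA genes, at 4.95 ± 0.333 and 4.48 ± 0.352 CPM. Mtpap, the mitochondrial poly(A) polymerase, was at 31.9 ± 2.32 and 29.9 ± 0.646 CPM, and WT embryo 5 was its highest at 35.9 CPM. Fastk, of a family of mitochondrial RNA-binding proteins, was at 45.9 ± 3.16 and 42.97 ± 3.01 CPM. Of these, Tfb2m shares 31.9%, Mterf1a 25.9%, Mtpap 20.3% and Fastk 20.8% of their 50-base words with other annotated genes.

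Among the nuclear subunits, Cox5a, which is part of complex IV, was at 73.5 ± 7.80 CPM in WT and 64.2 ± 3.98 CPM in HET, a log2 fold change of -0.19 with an unadjusted p of 0.0402 and an adjusted p of 0.911 by edgeR. Ndufa10, an accessory subunit of complex I, was at 93.0 ± 6.48 and 84.5 ± 1.47 CPM (log2 fold change -0.14, adjusted p = 0.911 by edgeR). Ndufb2 was at 36.8 ± 2.39 and 34.4 ± 1.04 CPM. In complex III, the core protein genes Uqcrc2 and Uqcrc1 and the Rieske protein gene Uqcrfs1 had log2 fold changes of -0.13, -0.10 and -0.08. In complex IV, Cox5b and Cox7c had -0.14 and -0.08, and in complex V, Atp5g2, Atp5c1 and Atp5b had -0.16, -0.09 and -0.10, all with overlapping groups.

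Ndufs5, an accessory subunit of complex I, had the largest difference of any nuclear subunit by size and also the largest spread. It was at 9.43, 16.4, 11.3, 9.53 and 9.54 CPM in WT embryos 5, 15, 16, 41 and 43, at 9.70 and 9.38 CPM in HET embryos 5 and 6, and at 0.703 and 0.557 CPM in HET embryos 7 and 24. The low mean of HET thus came from embryos 7 and 24, while embryos 5 and 6 were at the level of WT. HET against WT gave a log2 fold change of -1.15 ± 0.71 (SE), with an adjusted p of 0.911 by edgeR. It was -2.21 by limma-voom (unadjusted p = 0.0112, adjusted p = 0.862) and -0.53 by edgeR in the 5 low-Ttr embryos. Ndufs5 shares 21.7% of its 50-base words with the pseudogene BC002163. Neither of those HET embryos was the lowest of all embryos for any member. The ND genes of complex I summed to 6352 CPM in HET embryo 7, the lowest in HET, with only WT embryo 5 below it. In HET embryo 24 they summed to 7271 CPM, the highest in HET. Both sums were inside the range of the other 7 embryos.

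Of the genes for mitochondrial DNA upkeep, the accessory polymerase subunit Polg2 had a log2 fold change of -0.16, the single-strand binding protein Ssbp1 -0.09 and the deoxyguanosine kinase Dguok -0.09. Of the regulators of biogenesis, the zinc-finger factor Yy1 was at 109.7 ± 9.93 CPM in WT and 122.5 ± 2.88 CPM in HET, a log2 fold change of 0.16 with an unadjusted p of 0.0421 and an adjusted p of 0.911 by edgeR. WT embryo 5, at 126.7 CPM, was above all HET embryos. The nuclear receptor Esrra had a log2 fold change of 0.12 and Gabpa, a subunit of nuclear respiratory factor 2, of -0.08.

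**Figure D5:**
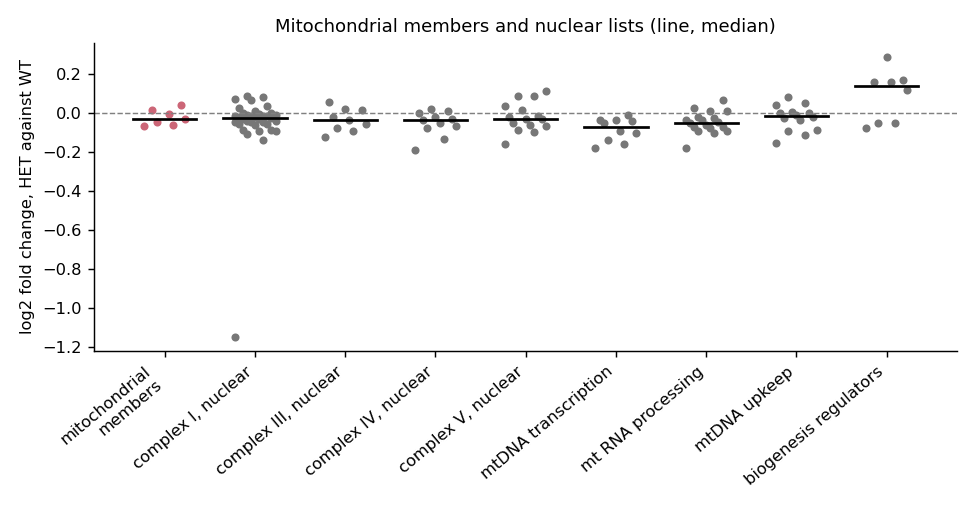
Log2 fold change of HET against WT for the 7 members (red) and each gene of 8 nuclear lists (grey), with the median of each list as a black line. The members' median is -0.03, the lists' medians run from -0.08 for mitochondrial DNA transcription to 0.14 for biogenesis regulators, and the single point at -1.15 is Ndufs5.

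Of 17809 tested genes outside the mitochondrial genome, those whose log2 CPM followed the summed CPM of the members most closely over the 9 embryos were Gm15577 (Pearson's r = 0.976), Gm45169 (0.960), Xpnpep2 (0.935), the phospholipase gene Plcd1 (0.929) and the neurexophilin gene Nxph2 (0.928). Without WT embryo 5 and HET embryo 7, the embryos farthest from the median of the sum, r was 0.896, 0.874, 0.690, 0.746 and 0.660. They were picked as the highest of many, Gm15577 had 27 to 73 reads and Xpnpep2 5 to 20 reads per embryo, and all points share library and scaling, so the values are a description.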

How the data were processed

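The authors extracted total RNA from forebrain, captured polyadenylated RNA, made TruSeq libraries and used single-end reads because the second reads failed. They aligned the reads to GRCm38.p6 with STAR 2.7.9a and counted them per gene with featureCounts, with the GENCODE annotation M25. The deposited values are raw counts per gene, not normalised; strand and the handling of reads with several mapping places are not given in the sources used here. All 9 columns were used, and no 2 columns were identical.

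Genes were kept with the filterByExpr defaults of edgeR 4.0.16 (minimum count 10), scaled by TMM and tested with the quasi-likelihood F test, 5 WT against 4 HET without covariates, in R 4.3.3. P-values were adjusted by Benjamini-Hochberg over all 17818 genes tested, with a threshold of 0.05. DESeq2 1.42.0, limma-voom (limma 3.58.1), other scalings and filters, choroid plexus RNA as a covariate, the embryos with Ttr under 100 CPM and leaving out embryos in turn were alternatives. The edgeR script was tested on simulated counts. The labels do not say how the embryos relate beyond the study's mention of littermates.

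Shared words are runs of 50 bases (100 as an alternative) of a gene that occur, on either strand, in an annotated mouse transcript of another gene in GENCODE M21, a release other than the one counted with but on the same GRCm38 assembly. A search of the whole genome had been planned, but annotated transcripts were used, so unannotated copies do not count. Gene positions come from the same annotation. Intervals and floors cover 95% and 3 counts.

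The members and gene lists were chosen with earlier results of these data known, and 2 list symbols were changed or dropped to match the table. Named genes were the 7 members, the other mitochondrial protein and ribosomal RNA genes, their nuclear copies, Npas3 and Ttr, in each nuclear list every gene past the threshold and the 3 with the smallest unadjusted p, and the 5 genes most correlated with the members' sum.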

Additional observations from a re-analysis of the deposited data

Results flagged for a closer look

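Of 90 sets of 4 or 5 embryos checked for a single embryo far from the others of its group, 7 had one. About 4.5 are reached by chance if values are normally distributed and the sets are independent. The sets are not independent, as Ttr is part of the summed choroid plexus markers, so no conclusion is drawn from 7 beside 4.5. In WT, embryo 5 had mt-Nd2 at 950.9 CPM against 1324 to 1451 CPM in the other 4, Ndufb2 at 32.6 CPM against 37.0 to 38.3 CPM, and Mtpap at 35.9 CPM against 30.3 to 31.9 CPM. WT embryo 15 had Ndufs5 at 16.4 CPM against 9.43 to 11.3 CPM. In HET, embryo 7 had Npas3 at 34.1 CPM against 27.8 to 28.2 CPM in the other 3. HET embryo 24 had Ttr at 466.6 CPM against 2.47 to 11.7 CPM, and its summed choroid plexus markers were at 548.7 CPM against 36.03 to 50.5 CPM. Without WT embryo 5 the log2 fold change of mt-Nd2 was -0.14, and no member passed the threshold without any single embryo.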

How the results depend on the processing

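No paired analysis was possible because nothing in the labels links embryos to litters or dams. The replicate number 5 that both groups hold does not make a pair. Over 19 alternative settings and 133 values of the 7 members, 0 passed the threshold, 109 kept their direction and 24 turned it. limma-voom turned mt-Nd6 to 0.0162 (log2 fold change). The choroid plexus covariate turned mt-Nd1 to 0.0303, mt-Nd2 to 0.055, mt-Nd4 to 0.0322, mt-Nd5 to 0.0539 and mt-Nd6 to 0.1471. The 5 low-Ttr embryos (2 WT, 3 HET, under 100 CPM) gave 0.0477, 0.0441, 0.06, 0.1279 and 0.2526 for the same genes. Leaving out WT embryos 5 and 16 together, chosen after their values were seen, turned mt-Co1 to -0.0172 and mt-Nd6 to 0.0898. The cause of these turns was not tested. Without each embryo in turn, the log2 fold change ran from -0.0172 to 0.0393 for mt-Co1, -0.0118 to 0.0778 for mt-Cytb, -0.1329 to -0.0098 for mt-Nd1, -0.1423 to -0.003 for mt-Nd2, -0.1327 to -0.0155 for mt-Nd4, -0.091 to 0.0319 for mt-Nd5, -0.0973 to 0.0854 for mt-Nd6 and -0.0548 to 0.023 for the summed CPM (-0.0075 with all embryos), and 0 members and 0 genes of the nuclear lists passed. The lowest adjusted p of a member over these settings was 0.581, for mt-Nd4 without WT embryo 5 by edgeR. Of all genes, 0 to 5 passed as higher (0 without HET embryo 5 or HET embryo 7, 5 without HET embryo 24, 1 to 3 without any other) and 13 (without HET embryo 6) to 20 as lower in HET. DESeq2 called 24 higher and 62 lower; 2 were higher with the covariate, 3 higher and 12 lower among the low-Ttr embryos, and 2 higher without WT embryos 5 and 16. With 100-base words, the shared part of mt-Co1 was 30.8% and of mt-Nd5 0%. Of the 24 named nuclear genes, 0 passed the threshold under any of the 19 settings, but 21 had a log2 fold change that moved by over 1.5 times under at least 1 of them: 13 among the low-Ttr embryos (Ndufb2 turned to 0.0029), 12 without WT embryos 5 and 16 (Cox7c turned to 0.0144) and 10 without WT embryo 16 (Uqcrfs1 -0.0262, Cox7c -0.0267). Ssbp1 was at -0.0278 without HET embryo 7 and Mtpap at -0.047 without WT embryo 5. Genes with 0 to 20 reads per embryo are known only coarsely at this depth.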
